A study of Homo sapiens with 6 samples.

Results

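The ARF, NPM1, MDM2 and p53 axis was examined in DU145 cells through 5 genes chosen by symbol: CDKN2A, NPM1, MDM2, MDM4 and HUWE1. All 5 were found among the 27381 genes of the deposited table and had an FPKM of at least 1, so all were among the 12822 genes compared. DU145 is a human prostate cancer cell line derived from a metastasis. The 6 libraries came from cells given a scrambled sgRNA (Scr, 2 libraries), cells in which CD24 was targeted with CRISPR/Cas9 (CD24 KO, 2 libraries) and cells in which RCC2 was targeted (RCC2 KO, 2 libraries). All of these cells went through transfection with a Cas9 and GFP plasmid, GFP sorting and clonal expansion. The paper describes 2 DU145 clones for each knockout, and which of them were sequenced is not given in the sources used here. Each label thus stands for very few clones. A difference between clones and an effect of the knockout cannot be told apart.

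The table gives 1 value per gene and condition in FPKM, a fragment count divided by the length of the transcript and by the size of the library. Levels of genes within a column can thus be set side by side. The columns still differ in scale, with FPKM sums of 451272 in Scr, 388764 in CD24 KO and 447005 in RCC2 KO. Differences between conditions therefore depend in part on the scaling. How the libraries of a condition were brought into 1 column is not given in the sources used here, and the RCC2 KO column may rest on the first library alone or on the pair. Since no library has a column of its own, no value has an SD or a test, and the depth behind it is unknown. A change is given as the difference of log2(FPKM + 1), which understates changes of genes with low values, and a 2-fold difference was used as the minimum for a call.

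The axis joins a nucleolus to a stress response. ARF, 1 of 2 unrelated proteins encoded by CDKN2A, is held in the nucleolus by its abundant partner NPM1 (nucleophosmin), and free ARF inhibits the ubiquitin ligases MDM2 and HUWE1, which mark p53 for the proteasome. MDM4 is a relative of MDM2 that pairs with it and blocks p53 as a transcription factor, while MDM2 is itself a p53 target gene, which closes a feedback loop. The other product of CDKN2A, p16, inhibits CDK4 and CDK6. Earlier work of the same group had placed CD24 at the contact between ARF and NPM1, a question about proteins. The comparison made here concerns the RNA alone.

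The targeted RNAs went against the labels. CD24 was at 93.2 FPKM in Scr, at 309 in the libraries labelled CD24 KO and at 214 in those labelled RCC2 KO, and RCC2 was at 37.8, 14.2 and 41.8 FPKM in the same order. Epithelial markers were present, with KRT8 between 149 and 348 FPKM, and KLK3, a prostate luminal marker, was listed at 0 in each column. The highest value of 11 leukocyte, endothelial and fibroblast markers was 0.678 FPKM, for COL1A1 in CD24 KO.

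NPM1 was the gene of the axis with the largest difference. Its RNA was at 488 FPKM in Scr, at 162 in the libraries labelled CD24 KO and at 483 in the libraries labelled RCC2 KO. The CD24 KO value stood alone, 3.01-fold below Scr, whereas Scr and RCC2 KO lay next to each other. As log2 changes against Scr these were -1.58 in CD24 KO and -0.01 in RCC2 KO. Between the knockouts, NPM1 was 2.98-fold higher in RCC2 KO, a log2 difference of 1.57. Of the 5 genes, 1 was thus past the 2-fold minimum in CD24 KO and none in RCC2 KO, beside 5.69% and 1.2% of all genes compared. In CD24 KO the genes past 2-fold were 388 on the lower side (3.03%) and 342 on the higher (2.67%). Of all genes compared, 67, or 0.523%, lay below NPM1 in that comparison. NPM1 stayed among the most abundant transcripts, above 99.4% of the genes compared in Scr and above 97.7% in CD24 KO. In bulk RNA, less NPM1 RNA per cell and fewer cells with a high level cannot be told apart.

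**Figure D1:**
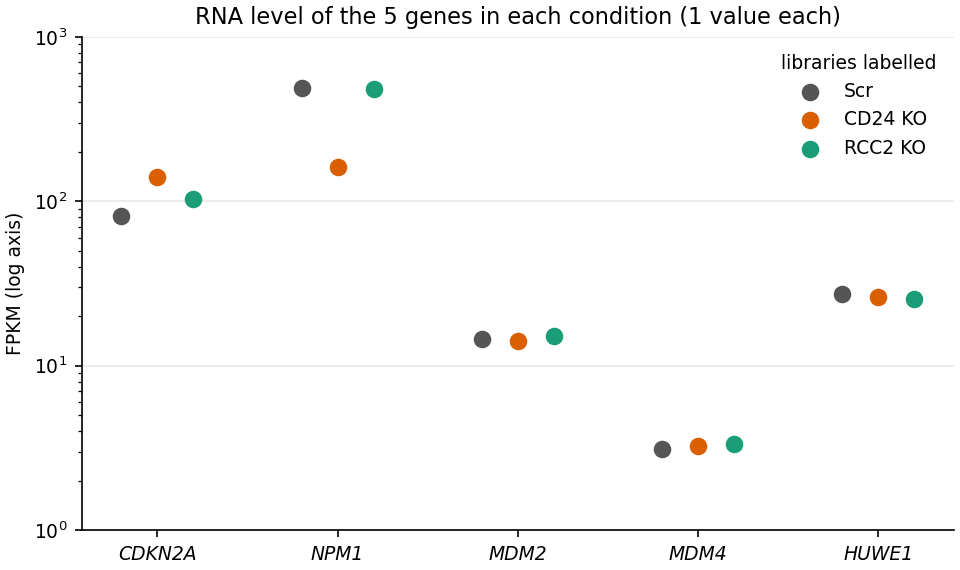
RNA level in FPKM on a log axis of the 5 genes of the axis, 1 point for each condition, with no error since the table holds 1 value each. NPM1 stands at 488 FPKM in Scr and 483 in RCC2 KO but 162 in CD24 KO, CDKN2A is highest in CD24 KO at 139.7, and the 3 points of MDM2, MDM4 and HUWE1 lie side by side.

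Some other abundant transcripts were low in CD24 KO as well. An abundance class of 102 genes with at least 400 FPKM in Scr was chosen after the values had been seen. In CD24 KO 17 (16.7%) were at least 2-fold lower and 2 at least 2-fold higher, beside 3.03% and 2.67% of all genes compared. The median log2 change was -0.33. Picking the class by high Scr values in itself leans a comparison with Scr toward lower values. Of these 102 genes, 8 lay below NPM1, among them the noncoding RNAs RNR2, RMRP and RNA28S4. RMRP and RNA28S4 were low in RCC2 KO as well. The proliferation list lay low as well: all 10 genes were lower in CD24 KO, 5 of them at least 2-fold, beside 3.03% of all genes compared. Its median log2 change was -0.94 against -0.03 over all genes compared. All 10 were also lower with other scalings, but 3 were past 2-fold with quantile normalization and 1 with the same sum of FPKM. In RCC2 KO the median of the same list was 0.11. Its part in the NPM1 difference was not tested.

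The table, which names no genome build and whose coordinates were read as hg19, places NPM1 on chromosome 5 from 170814708 to 170837888. GENCODE 29 names 45 pseudogenes of NPM1, none of which has its own entry in the table, and reads from such copies cannot be separated from those of the gene, so the NPM1 level is less certain than that of the other genes.

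Proteins that share the nucleolus with NPM1 and ARF showed the same direction in CD24 KO. Of 10 genes in this list, all compared, 8 were lower in CD24 KO and 2 higher, and the median log2 change was -0.66. NCL alone was at least 2-fold lower, and 6 were at least 1.5-fold lower, a minimum passed in that direction by 11.6% of all genes compared. NCL, which encodes the nucleolar RNA-binding protein nucleolin, was at 876 FPKM in Scr, at 368 in CD24 KO and at 814 in RCC2 KO. NPM3, a smaller member of the nucleoplasmin family, was at 58.3, 34.3 and 54.4 FPKM in that order. The ratio of NPM1 to NPM3 was thus 8.36 in Scr, 4.72 in CD24 KO and 8.88 in RCC2 KO, so the difference in NPM1 was the larger. UBTF, an activator of RNA polymerase I at ribosomal DNA, was at 53.3, 28.0 and 57.1 FPKM, and CDKN2AIPNL, named for its likeness to an ARF-interacting protein, at 21.95, 11.8 and 16.5 FPKM. The ubiquitin ligase of ARF itself, TRIP12, was at 35.4, 25.7 and 35.2 FPKM, a log2 change of -0.45 in CD24 KO. NOP53, a nucleolar protein that binds ribosomal protein RPL11, went the other way, at 37.9, 43.7 and 26.2 FPKM. In RCC2 KO the list was divided 5 to 5, with a median log2 change of 0.02 and no gene past 1.5-fold.

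CDKN2A was higher in both knockouts than in Scr, by less than 2-fold. Its RNA was at 81.4 FPKM in Scr, at 139.7 in CD24 KO and at 104 in RCC2 KO. Scr was the lowest and CD24 KO the highest of the 3 values. The CD24 KO value was 1.72-fold that of Scr, a log2 change of 0.77, and was past the 1.5-fold minimum, which 9.55% of all genes compared passed in that direction. With NPM1, 2 of the 5 genes were past 1.5-fold in CD24 KO and none in RCC2 KO, beside 21.1% and 5.27% of all genes compared. For RCC2 KO the ratio was 1.27 and the log2 change 0.35. Higher log2 changes than CDKN2A were found for 5.14% of genes in CD24 KO and 6.13% in RCC2 KO. Both values were taken against the same Scr column, and a low Scr value and a high value in each knockout cannot be told apart. Set against each other without Scr, CDKN2A was lower in RCC2 KO than in CD24 KO, with a log2 difference of -0.43.

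The table places CDKN2A on chromosome 9 from 21967138 to 21994490 and gives 1 value for the whole locus. RefSeq lists 2 start sites for the gene in GRCh38.p14, both on the minus strand: the upstream one, at 21995324, opens the transcript that encodes ARF, and the other, at 21974857, opens the transcript that encodes p16. A value for the gene adds both, so the share of ARF RNA in the difference cannot be read from it. The 250 bases before the ARF start, at chr9:21995325-21995574 on the minus strand, are shown because this start alone serves ARF. They lie outside every exon of CDKN2A in GENCODE 29, are 66.8% G or C and hold none of the motifs searched on both strands: the E-box CACGTG (in 6.34% of 35116 such windows of the RefSeq table), the GC box GGGCGG (42.6%), the TATA box TATAAA or TATATA (12.8%) and the p53 response element with at most 2 mismatches in 20 bases (0.561%). No match says only that these letters are not in this window.
CDKN2A, before the ARF start: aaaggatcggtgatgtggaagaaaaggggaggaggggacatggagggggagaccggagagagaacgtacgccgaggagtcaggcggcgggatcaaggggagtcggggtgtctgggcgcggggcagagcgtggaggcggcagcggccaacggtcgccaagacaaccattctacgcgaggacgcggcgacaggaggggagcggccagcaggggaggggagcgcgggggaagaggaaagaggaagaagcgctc

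CDKN2A-AS1, an antisense RNA, has the same position in the table. It was at 0.378 FPKM in Scr, at 1.15 in CD24 KO and at 0.969 in RCC2 KO, low beside CDKN2A but in the same order of conditions. With quantile normalization its log2 changes were 0.51 in CD24 KO and 0.62 in RCC2 KO, so the order of the knockouts turned. The methods name a stranded kit and the labels a kit name without that word, and whether strand was used in the quantification is not given in the sources used here, so fragments of CDKN2A and of its antisense partner may not have been told apart.

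Around CDKN2A the genes did not share 1 direction. CDKN2B, the neighbour that encodes the related CDK inhibitor p15, was at 5.18 FPKM in Scr, at 13.8 in CD24 KO and at 5.03 in RCC2 KO, so that its log2 changes were 1.26 and -0.03. CDKN2B was thus high in CD24 KO alone, and the ratio of CDKN2A to CDKN2B was 15.7 in Scr, 10.1 in CD24 KO and 20.6 in RCC2 KO. The antisense transcript CDKN2B-AS1 was at 1.34, 2.48 and 1.14 FPKM. MTAP, which encodes a methionine salvage enzyme on the other side of CDKN2A, was at 22.04, 13.8 and 21.7 FPKM and so was low in CD24 KO. Over the 5 nearest compared genes on each side, 8 were higher and 2 lower in CD24 KO, with log2 changes from -0.64 to 1.26. In RCC2 KO 3 were higher and 7 lower, and none of these 10 was past 2-fold.

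The genes that act on the INK4A/ARF locus were divided. Of 20 genes listed, 18 were compared, and in CD24 KO 12 were lower and 6 higher, with a median log2 change of -0.17. RING1 was listed at 0 in each column. EZH2, the methyltransferase of Polycomb complex PRC2 that silences this locus, was at 34.8 FPKM in Scr, at 15.99 in CD24 KO and at 39.0 in RCC2 KO. It was the 1 gene of the list past 2-fold in CD24 KO, with a log2 change of -1.07, beside 5.69% of all genes compared. With quantile normalization or with all columns scaled to the same sum it was not past 2-fold. BMI1, of the Polycomb complex PRC1, was at 36.1, 45.8 and 37.99 FPKM. KDM6B, which removes the mark that EZH2 sets, was at 7.43, 12.02 and 5.84 FPKM. ETS1 was at 55.8, 36.6 and 57.0 FPKM, while ETS2, a related activator of CDKN2A, was at 28.95, 43.2 and 39.7 FPKM. The median of the list in CD24 KO was 0.02 once the columns were scaled to the same sum. It was -0.09 with quantile normalization and -0.13 with median centring, so its sign turned with the same-sum scaling alone. In RCC2 KO the log2 changes of the list lay between -0.30 and 0.44.

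The opposite directions of NPM1 and CDKN2A in CD24 KO add up in their ratio, which does not change when a column is multiplied by a constant. Quantile normalization is not of that kind and can change the ratio. There were 5.99 units of NPM1 RNA for each unit of CDKN2A RNA in Scr, 1.16 in CD24 KO and 4.66 in RCC2 KO. The ratio was thus 5.16-fold lower in CD24 KO than in Scr and 1.29-fold lower in RCC2 KO. Whether replicate libraries differ by as much could not be tested.

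**Figure D2:**
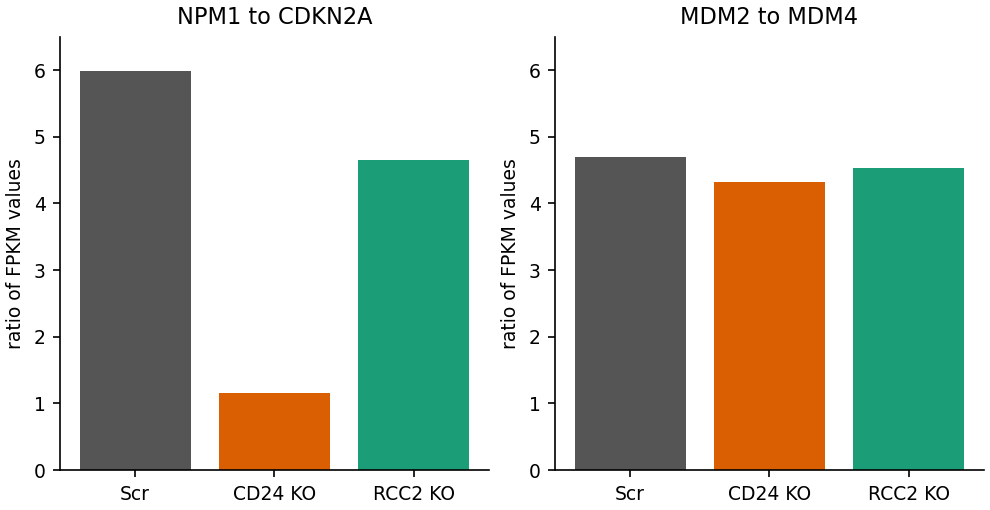
Ratio of FPKM values within each condition for NPM1 to CDKN2A and for MDM2 to MDM4, as bars from 0. The first ratio is 5.99 in Scr, 1.16 in CD24 KO and 4.66 in RCC2 KO, and the second stays between 4.33 and 4.69.

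MDM2, the main ubiquitin ligase of p53, differed little between the conditions. It was at 14.6 FPKM in Scr, at 14.1 in CD24 KO and at 15.1 in RCC2 KO, with log2 changes of -0.04 and 0.05. MDM4 was the lowest of the 5 genes, at 3.10, 3.27 and 3.32 FPKM, with log2 changes of 0.06 and 0.08. The 3 values of each gene lay close together, and the ratio of MDM2 to MDM4 was 4.69 in Scr, 4.33 in CD24 KO and 4.54 in RCC2 KO. HUWE1, a very large ubiquitin ligase also known as ARF-BP1, was at 27.2, 26.2 and 25.6 FPKM, with log2 changes of -0.05 and -0.09. The ratio of HUWE1 to MDM2 was 1.87 in Scr, 1.86 in CD24 KO and 1.70 in RCC2 KO. Between the knockouts, MDM2, MDM4 and HUWE1 had log2 differences of 0.09, 0.02 and -0.04. The signs of such small values turned with the scaling of the columns: with the same sum of FPKM, the log2 changes in CD24 KO were 0.16 for MDM2, 0.22 for MDM4 and 0.16 for HUWE1, while the median of all genes compared moved from -0.03 to 0.15.

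**Figure D3:**
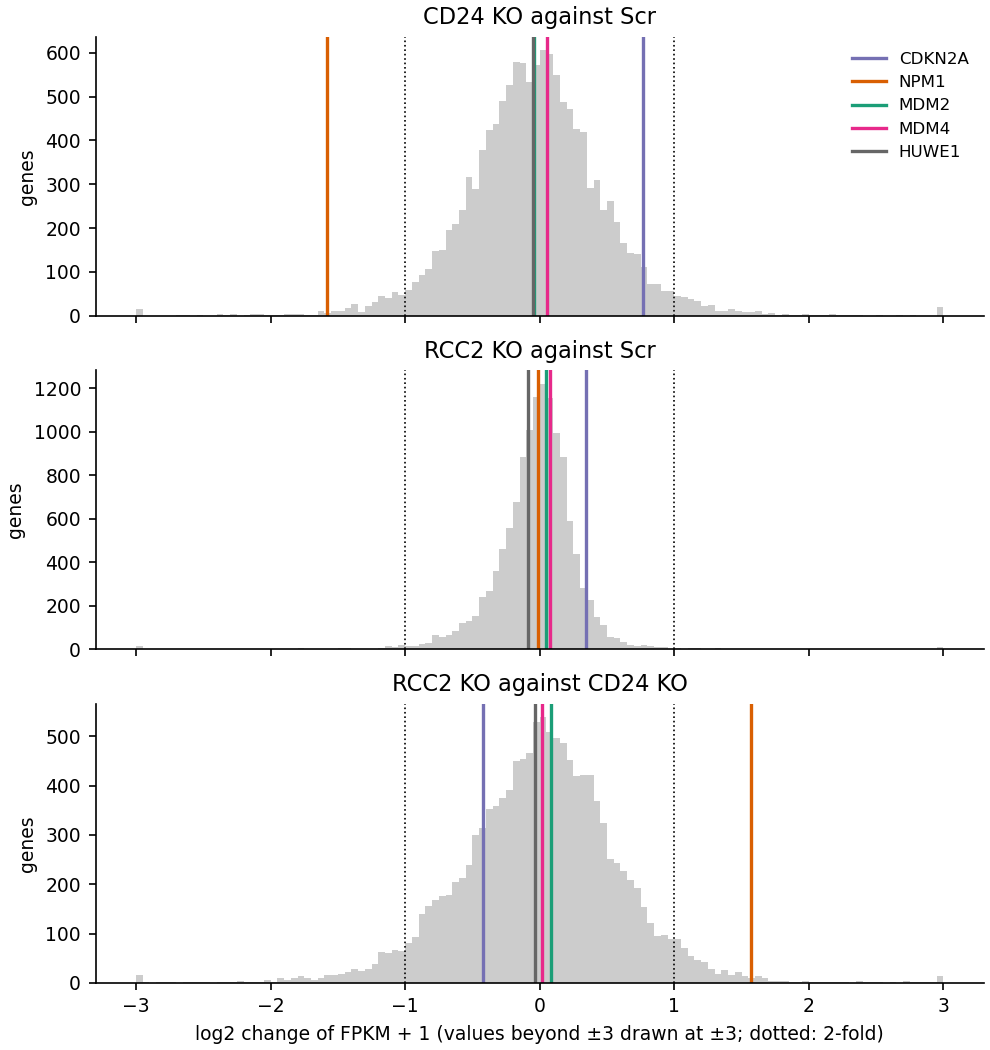
Number of genes by log2 change of FPKM + 1 for the 12822 genes compared (gray bars), in each of the 3 comparisons, with lines for the 5 genes and dotted lines at 2-fold. NPM1 lies past the lower dotted line in CD24 KO against Scr at -1.58 and past the upper one in RCC2 KO against CD24 KO at 1.57, and MDM2, MDM4 and HUWE1 stand in the middle of each distribution, where their lines partly overlap.

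In the table MDM2 lies on chromosome 12 from 69201952 to 69239324, MDM4 on chromosome 1 from 204485507 to 204527248 and HUWE1 on chromosome X from 53559057 to 53713674. The microRNA genes MIR98 and MIRLET7F2 lie within HUWE1 and were listed at 0 in each column. Neighbouring genes gave no common picture. Of the 10 nearest compared genes around MDM2, 8 were lower in CD24 KO, and CCT2, a subunit of the cytosolic chaperonin, was the 1 past 2-fold, at 216 FPKM in Scr, at 103 in CD24 KO and at 225 in RCC2 KO. Around MDM4, KISS1 was the 1 gene past 2-fold against Scr, at 1.38, 1.66 and 0.187 FPKM. Around NPM1 and HUWE1, none of 10 neighbours was past 2-fold against Scr, and the NPM1 neighbours had log2 changes in CD24 KO from -0.56 to 0.40.

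The p53-responsive promoter of MDM2 is shown because it is the element through which MDM2 reports p53 activity. RefSeq lists 4 start sites for MDM2, and the window before the site at 68809017 lies within the gene in GRCh38.p14. The 235 bases at chr12:68808767-68809001 on the plus strand, up to the first exon base there in GENCODE 29, hold 1 match to the p53 response element, from 94 to 75 bases before the start site, in capitals. Such a match was found in 0.561% of the RefSeq windows of 250 bases. None was found in the windows of CDKN2A, NPM1, MDM4 or HUWE1.
MDM2, before the inner start: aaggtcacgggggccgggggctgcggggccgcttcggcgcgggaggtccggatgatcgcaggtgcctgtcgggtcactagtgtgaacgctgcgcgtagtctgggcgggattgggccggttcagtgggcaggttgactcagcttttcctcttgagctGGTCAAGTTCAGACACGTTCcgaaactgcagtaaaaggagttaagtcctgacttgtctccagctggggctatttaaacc

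Genes known as p53 targets, a list of 46 that includes MDM2, did not move 1 way in either knockout. Of these, 41 were compared. In CD24 KO, 26 were higher and 15 lower, with a median log2 change of 0.14 against -0.03 over all genes compared. At least 2-fold higher were 3 of the 41 genes and at least 2-fold lower was 1, beside 2.67% and 3.03% of all genes. With the same sum of FPKM, 31 were higher, 5 of them at least 2-fold, and 10 were lower. In RCC2 KO, 22 were higher and 19 lower, the median was 0.003 and no target was past 2-fold, beside 0.406% of all genes higher and 0.796% lower. At 1.5-fold 2 targets were lower there, IGFBP3 and TP53INP1, beside 3.82% of all genes.

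The targets with the largest differences in CD24 KO belong to several arms of the response. GADD45A, a stress sensor that acts in growth arrest and DNA repair, was at 27.9 FPKM in Scr, at 75.4 in CD24 KO and at 26.9 in RCC2 KO. PHLDA3, a repressor of AKT, was at 2.40, 7.31 and 2.58 FPKM. TP53INP1, which acts in stress-induced cell death and autophagy, was at 3.66, 8.63 and 1.77 FPKM. These 3 genes were highest in CD24 KO, with log2 changes of 1.40, 1.29 and 1.05. IGFBP3, a secreted binding protein for insulin-like growth factors, was at 133 FPKM in Scr, at 14.3 in CD24 KO and at 79.7 in RCC2 KO, and its log2 change of -3.13 in CD24 KO was the largest of the list.

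Within the death arm the directions were opposite. PMAIP1, which encodes the BH3-only protein NOXA, was at 19.0, 38.3 and 20.4 FPKM, and BAX, the pore-forming effector of apoptosis, at 23.8, 14.4 and 31.0 FPKM. PMAIP1 was therefore high and BAX low in CD24 KO. SESN2, a stress-induced inhibitor of mTORC1 signaling, was at 4.43, 9.16 and 4.44 FPKM. GADD45A, PMAIP1, SESN2 and TP53INP1 are also known to respond to stress signals without p53. CDKN1A, which encodes the CDK inhibitor p21 and is the most used readout of p53, was at 31.9, 29.1 and 28.4 FPKM, with log2 changes of -0.13 and -0.16. MDM2 and CDKN1A thus lay near their Scr values in both knockouts while other targets did not.

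**Figure D4:**
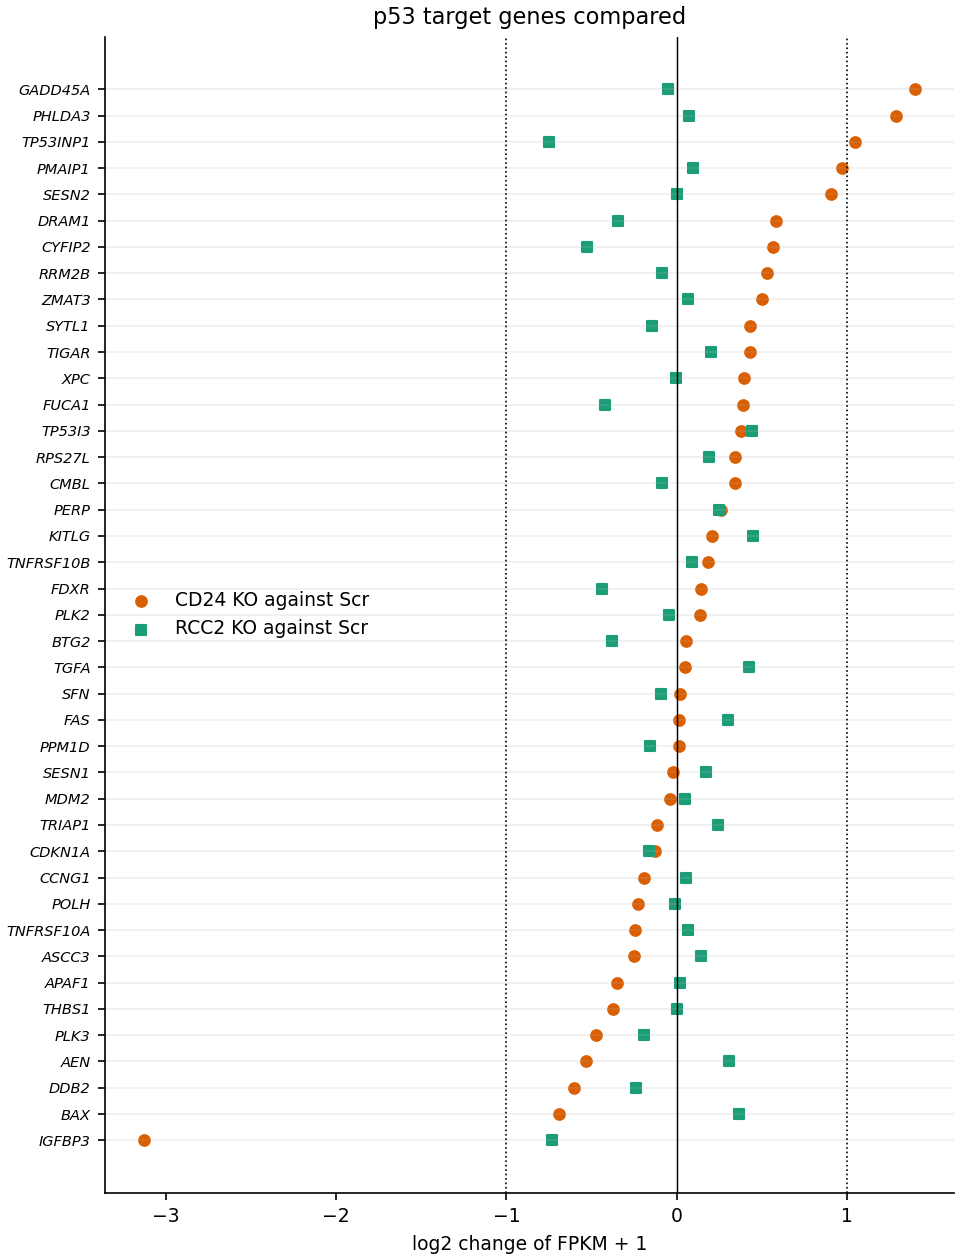
Log2 change of FPKM + 1 against Scr for the 41 p53 target genes compared, circles for CD24 KO and squares for RCC2 KO, ordered by CD24 KO, with dotted lines at 2-fold. GADD45A (1.40), PHLDA3 (1.29) and TP53INP1 (1.05) lie past the upper line and IGFBP3 (-3.13) past the lower one in CD24 KO, no square lies past a line, and MDM2 and CDKN1A stand near 0 in both.

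Enzymes that attach ubiquitin to p53 or MDM2, or remove it, had no gene past 2-fold. Of 20 listed, 19 were compared, and in CD24 KO 16 were lower and 3 higher, with a median log2 change of -0.29. TRIM28, a corepressor that works with MDM2, was at 79.3 FPKM in Scr, at 41.3 in CD24 KO and at 78.6 in RCC2 KO. RNF126 was at 22.3, 13.1 and 21.8 FPKM. USP7, which removes ubiquitin from both MDM2 and p53, was at 52.3, 34.8 and 50.2 FPKM, a log2 change of -0.57. With the same sum of FPKM in each column, 11 were lower and 8 higher in CD24 KO, with a median of -0.09. In RCC2 KO the log2 changes lay between -0.19 and 0.27.

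Ribosomal proteins known to bind MDM2 when ribosome assembly fails leaned the other way from NPM1. All 14 listed were compared, and in CD24 KO 10 were higher and 4 lower, with a median log2 change of 0.24 and none past 2-fold. RPL5 and RPL11, the partners of MDM2 best known for this, were at 324, 375 and 371 FPKM and at 2212, 1972 and 2124 FPKM. RPS27 was at 74.8, 123.7 and 72.9 FPKM, and RPS14 at 598, 392 and 559.8 FPKM, so that the first was high and the second low in CD24 KO. In RCC2 KO RPS27A, which encodes a ubiquitin fusion, was at 38.4 FPKM against 22.2 FPKM in Scr. It was the 1 gene of the list past 1.5-fold, beside 5.27% of all genes compared. Ribosomal proteins have many processed pseudogenes, so these values are less certain.

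Kinases, phosphatases and acetylases that act on p53 or MDM2 differed by less than 2-fold. All 19 listed were compared, none was past 2-fold, and the median log2 change was -0.15 in CD24 KO and 0.05 in RCC2 KO. CHEK1, the checkpoint kinase downstream of ATR, was at 30.4 FPKM in Scr, at 19.1 in CD24 KO and at 33.0 in RCC2 KO. In CD24 KO 15 of the 19 were lower and 4 higher, but 8 were lower and 11 higher with the same sum of FPKM.

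The list around p16, which holds D-type cyclins and RB1 beside the kinases CDK4 and CDK6, was mostly lower in CD24 KO. CDK4, the kinase that p16 inhibits, was at 41.5, 28.96 and 39.5 FPKM, and CDK6 was at 1.61, 1.21 and 1.40 FPKM. CCND3, a D-type cyclin, was at 19.8, 12.6 and 18.04 FPKM. CCND1, the most abundant of the list, was at 154, 110 and 181 FPKM. Of the 5 genes compared, 4 were lower in CD24 KO, with a median log2 change of -0.48 and none past 2-fold. RB1 was the 1 that was higher, at 16.4, 21.1 and 18.9 FPKM. The median in RCC2 KO was -0.07.

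**Figure D5:**
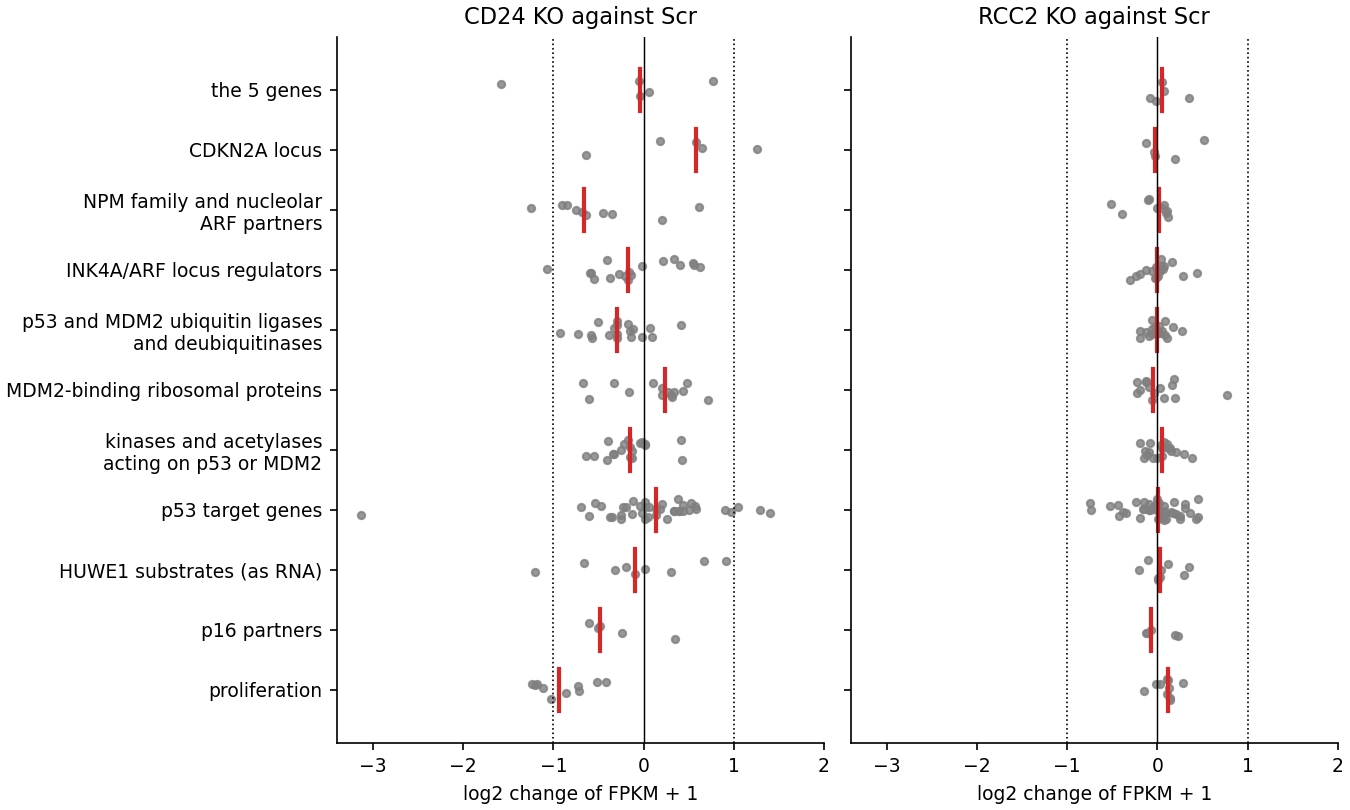
Log2 change of FPKM + 1 against Scr for each gene of the lists (gray points) and the list median (red line), for CD24 KO and RCC2 KO, with dotted lines at 2-fold. In CD24 KO the median is -0.66 for the NPM family and nucleolar partners, -0.94 for proliferation and 0.14 for the p53 targets, and in RCC2 KO no point lies past a dotted line.

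The direct comparison of RCC2 KO with CD24 KO leaves out the Scr values. Past 2-fold were 8.31% of the genes compared, 515 of them higher (4.02%) and 551 lower in RCC2 KO (4.3%), and of the 5 genes of the axis NPM1 alone was among them, on the higher side. Of the 10 nucleolar genes 8 were higher in RCC2 KO, NCL and UBTF at least 2-fold. Past 2-fold was 1 of these genes with median centring and none with quantile normalization or the same sum of FPKM. The p53 targets had a median log2 difference of -0.09, with 2 genes at least 2-fold higher (IGFBP3 and BAX) and 4 at least 2-fold lower (TP53INP1, GADD45A, PHLDA3 and CYFIP2). These counts were 1 and 6 with quantile normalization and 1 and 8 with the same sum of FPKM. Genes called 2-fold were higher in 48.3% of cases, and in 23.7% with the same sum of FPKM. For CD24 KO against Scr these shares were 46.8% and 73.1%.

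Genes most like each of the 5 were sought by the distance between their 2 log2 changes against Scr, among genes with a mean of at least 10 FPKM. With 3 columns this measure rests on 2 numbers that share Scr, and it describes the table only. Few genes lay near NPM1: 4 of 6617 were within a distance of 0.1, the nearest being H2AFX, SFPQ and TUBA1C. TUBA1C was at 729 FPKM in Scr, at 236 in CD24 KO and at 729.5 in RCC2 KO. For CDKN2A 11 genes were within 0.1, led by IRF2BP2, ARMCX3 and RAB15. For MDM2, MDM4 and HUWE1, 442, 376 and 326 genes were within 0.1, so that their pattern was a common one. The nearest were ZCCHC9, LOC646762 and TEAD2 for MDM2, MED6, PRKAA1 and CDKN1B for MDM4, and GCNT2, SNW1 and SMARCA5 for HUWE1.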

How the data were processed

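The authors deposited 1 table of FPKM values, with 1 column for each of the 3 conditions. The submitters' processing notes name HISAT, StringTie, Cufflinks and GATK without roles or versions, and the genome build is not given in the sources used here. Only 15.8% of 24864 gene symbols lay where GENCODE 29 puts them on GRCh38, so the table's coordinates were read as hg19, with starts counted from 1.

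A gene was compared, as log2(FPKM + 1), when any column reached 1 FPKM, and 2-fold was the minimum for a call. The 5 genes and the 17 lists, written from memory, were chosen with earlier results of these data known. Of 187 list symbols all were matched to the table, in part through older symbols. Genes were named when at least 1.5-fold changed and at 5 FPKM or more in the higher column, at most 4 for each list and comparison, and others were named after their values had been seen. For neighbours, 5 compared genes on each side were taken, and for genes of like pattern the 3 nearest. Promoter windows are from the RefSeq table for GRCh38.p14. The depth is unknown, and without values for single libraries the planned limma test, the replicate block and the removal of each replicate could not be run.

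Alternatives were pseudocounts of 0.1 and 5, quantile normalization, no filter, median centring, a filter of 1 FPKM in every column, the same sum of FPKM in every column and a 1.5-fold minimum. The sum in CD24 KO lacks the entry RNR2, which was at 26884 FPKM in Scr, at 0 in CD24 KO and at 22704 in RCC2 KO. The same-sum scaling therefore rests in part on this 1 entry. The code for the 2-fold call was run on simulated columns with larger changes built in. The noise between real libraries is unknown here, so that run does not show how reliable the calls are. Python 3.11.15, NumPy 2.4.6, pandas 2.3.3 and matplotlib 3.10.9 were used.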

Additional observations from a re-analysis of the deposited data

How the results depend on the processing

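No paired analysis was possible because the table holds 1 value per condition, and no replicate could be left out for the same reason. Under the 7 alternatives for scaling, filter and pseudocount, NPM1 had log2 changes in CD24 KO from -1.59 to -1.36 and stayed past 2-fold, and CDKN2A lay between 0.74 and 0.99, below 2-fold. MDM2, MDM4 and HUWE1 were within 0.23 of 0 in each comparison. The median of the p53 targets lay between 0.05 and 0.33 in CD24 KO and between 0.001 and 0.032 in RCC2 KO.

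The counts of genes at least 2-fold changed moved most, and the cause was not tested. Higher and lower in CD24 KO were 342 and 388 genes. The first count was 684 with a pseudocount of 0.1 and 210 with the filter of 1 FPKM in every column. The counts were 96 and 182 with a pseudocount of 5, 576 and 212 with the same sum of FPKM and 1225 and 1484 at 1.5-fold. In RCC2 KO, 52 and 102 genes became 122 and 321 with a pseudocount of 0.1, 23 and 31 with a pseudocount of 5, 23 and 44 with the filter of 1 FPKM in every column and 186 and 490 at 1.5-fold. In RCC2 KO against CD24 KO, 515 and 551 genes became 237 and 143 with a pseudocount of 5, 285 and 917 with the same sum of FPKM and 1771 and 1809 at 1.5-fold, and the lower count was 1123 with a pseudocount of 0.1 and 365 with the filter of 1 FPKM in every column.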

Other observations

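Substrates of HUWE1 were examined as RNA. Of 9 listed genes, all compared, 4 were higher and 5 lower in CD24 KO, with a median log2 change of -0.10 that turned to 0.11 with the same sum of FPKM. CDC6, which loads the replicative helicase, was at 34.8 FPKM in Scr, at 14.5 in CD24 KO and at 35.8 in RCC2 KO. It was the 1 gene past 2-fold in CD24 KO, beside 5.69% of all genes compared. POLB, the polymerase of base excision repair, was at 7.96, 15.8 and 10.4 FPKM, and MCL1, a survival protein of the BCL2 family, at 147, 181 and 147 FPKM. POLB was thus highest in CD24 KO. In RCC2 KO the median of the list was 0.03, with no gene past 1.5-fold.

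Among epithelial markers, KRT8 and KRT18 were at least 2-fold lower in CD24 KO, with log2 changes of -1.17 and -1.05. Neither was past 2-fold with quantile normalization or with the same sum of FPKM. CDH1, which encodes E-cadherin, was at 27.9, 52.6 and 23.7 FPKM.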
